A study of Homo sapiens with 10 samples.

Results

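Core circadian clock genes were examined in the RNA-Seq data as a set of 10 genes chosen by name, namely *ARNTL*, *NPAS2*, *PER1*, *PER2*, *PER3*, *CRY1*, *CRY2*, *NR1D1*, *NR1D2* and *DBP*. All 10 were among the 27945 gene symbols of the deposited expression table, and all 10 were among the 13333 genes that passed the filter on low values. Where a symbol had more than 1 transcript row, the row with the highest mean was used.

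The 10 libraries came from EA.hy926, an endothelial line made by fusing human umbilical vein endothelial cells with the lung carcinoma line A549. In 3 clones with the genotype VEGFA_lincRNA knock-out and in 3 clones with the genotype VEGFC_lincRNA knock-out, CRISPR/Cas9 had removed the promoter of the lncRNA *VEGFA-LNC* or *VEGFC-LNC* on every allele, and each deletion had its own set of 2 control libraries (*VEGFA-LNC* control and *VEGFC-LNC* control). Cells of all 4 groups had been transfected with gRNAs and taken through clonal selection, the controls without the Cas9 protein and without a deletion. All were grown in high-glucose DMEM with fetal bovine serum, with no further treatment named. The deletion groups therefore held 3 clones each, a clone being the descendants of a single cell, and it is not stated whether the 2 controls of a set were separate clones or cultures, so that p-values may measure a spread that is partly technical. The hour of harvest and any synchronization of the cells are not given in the sources used here.

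Values are FPKM, that is, reads per kilobase of transcript, scaled to the reads of the library. Library sizes ran from 6743971 to 24197622 reads. The median gene varied far less between the 2 controls of a set than between clones. The median SD of log2(FPKM + 0.1) was 0.065 and 0.0639 in the *VEGFA-LNC* and *VEGFC-LNC* controls and 0.287 and 0.249 in the corresponding clones. The reads of 2 libraries were also compared by a chi-square per degree of freedom, which is near 1 under read sampling alone. It was 3.64 between the *VEGFA-LNC* controls, 1.53 between the *VEGFC-LNC* controls and 18.3 to 135 between clones of a deletion. Of the endothelial markers, *CDH5* lay between 56.6 and 312 FPKM and *PECAM1* between 13.9 and 159 FPKM over the 10 libraries, whereas *CLDN5* was listed at 0 in all 10. *KDR* and *VWF* were low, at 0.036 to 1.39 FPKM and 0.65 to 8.78 FPKM. *TEK*, *ERG*, *TIE1*, *ESAM* and *ROBO4* were at 9.97 FPKM or more in every library. The epithelial keratins *KRT8* and *KRT18*, known from the A549 parent, were at 95.2 FPKM or more in every library. The other lung epithelial markers looked at were low. The keratin *KRT19* was at most 0.354 FPKM in any library, *EPCAM* at most 0.505 FPKM and *ALDH1A1* at most 0.318 FPKM. *SFTPC*, *SFTPB* and *CDH1* were at or near 0. No transcript row carried the name of either deleted lncRNA, so the deletions themselves were not checked here.

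The mammalian clock is a feedback loop of transcription. ARNTL (also called BMAL1) pairs with CLOCK, or with its paralog NPAS2, and the pair binds E-box sequences and activates the period genes (*PER1*, *PER2*, *PER3*) and the cryptochrome genes (*CRY1*, *CRY2*), whose proteins return to the nucleus and inhibit the pair. In an interlocked loop the nuclear receptors NR1D1 and NR1D2 (REV-ERB alpha and beta) repress *ARNTL* and *NPAS2* through ROR response elements, and DBP activates genes through D-boxes. Endothelial cells have such a clock, and in culture it is set by serum, glucocorticoids and cAMP, with the phases of separate cells drifting apart in time.

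The regulatory letters of this loop were looked for in the 250 bases before each gene start (RefSeq, GRCh38.p14), as a description. Their part in the levels given below was not tested. The motifs were CACGTG (E-box), CACGTT (E'-box), TTACGTAA and TTATGTAA (D-box), TAGGTCA (core of the ROR response element) and TGACGTCA (CRE), each on both strands. All 10 members had an entry, with 14 gene starts in all. An E-box lay before 2 members, an E'-box before 4, a D-box before 2, a ROR core before 1 and a CRE before 0. A member was counted if any of its starts had the match, whereas the shares that follow are per start. Of all 35116 promoters of this length, 6.34% held the E-box, 4.55% the E'-box, 0.105% and 0.834% the 2 D-box spellings, 1.61% the ROR core and 1.65% the CRE. The 5 members with a match before their first start are given with the matching letters in capitals, 5′ to 3′ on the strand of the gene. These are *PER1* with an E-box at bases -173 to -168 from the start (chr17:8152405-8152654, minus strand), *PER2* with an E'-box at -197 to -192 (chr2:238288611-238288860, minus strand), *PER3* with a D-box at -177 to -170 (chr1:7784041-7784290, plus strand), *CRY1* with an E'-box on the other strand at -89 to -84 (chr12:107093550-107093799, minus strand) and *NR1D1* with an E'-box on the other strand at -168 to -163 (chr17:40100590-40100839, minus strand).
PER1: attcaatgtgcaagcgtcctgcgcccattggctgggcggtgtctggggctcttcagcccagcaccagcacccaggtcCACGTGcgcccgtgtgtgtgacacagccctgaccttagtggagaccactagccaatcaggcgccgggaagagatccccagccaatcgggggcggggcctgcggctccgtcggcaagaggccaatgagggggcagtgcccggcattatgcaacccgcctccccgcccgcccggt
PER2: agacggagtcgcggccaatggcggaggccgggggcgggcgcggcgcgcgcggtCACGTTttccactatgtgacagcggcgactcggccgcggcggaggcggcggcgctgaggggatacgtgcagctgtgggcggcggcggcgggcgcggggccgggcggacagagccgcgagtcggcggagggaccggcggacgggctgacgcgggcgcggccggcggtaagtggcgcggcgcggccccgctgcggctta
PER3: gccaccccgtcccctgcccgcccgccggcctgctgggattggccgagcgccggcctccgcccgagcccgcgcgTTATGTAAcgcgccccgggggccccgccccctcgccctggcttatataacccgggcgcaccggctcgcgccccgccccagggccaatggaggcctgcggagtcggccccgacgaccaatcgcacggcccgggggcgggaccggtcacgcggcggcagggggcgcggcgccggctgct
CRY1: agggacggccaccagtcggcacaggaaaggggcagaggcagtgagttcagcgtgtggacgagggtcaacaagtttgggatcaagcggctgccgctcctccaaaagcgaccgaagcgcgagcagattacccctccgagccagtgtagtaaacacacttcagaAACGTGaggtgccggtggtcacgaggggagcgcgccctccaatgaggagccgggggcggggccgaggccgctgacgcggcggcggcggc
NR1D1: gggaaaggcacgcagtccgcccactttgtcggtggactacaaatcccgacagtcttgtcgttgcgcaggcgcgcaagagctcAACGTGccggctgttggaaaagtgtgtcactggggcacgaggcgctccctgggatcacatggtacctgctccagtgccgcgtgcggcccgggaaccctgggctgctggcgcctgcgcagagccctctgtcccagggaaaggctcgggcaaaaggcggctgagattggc

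*CRY2* and *NR1D2* had their matches before the second of their starts only, which lies downstream of the first, and short stretches around them are given for that reason. *CRY2* (window chr11:45847225-45847474, plus strand) held an E'-box on the other strand at -188 to -183 and a ROR core at -65 to -59. *NR1D2* (window chr3:23945871-23946120, plus strand) held E-boxes at -155 to -150 and at -105 to -100 and a D-box on the other strand at -194 to -187.
CRY2, E'-box: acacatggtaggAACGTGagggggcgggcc
CRY2, ROR core: ttgcggcgtcaTAGGTCActgggcgggct
NR1D2, E-box at -155: ggcgggcggggaCACGTGaggccgctcggc
NR1D2, E-box at -105: gggccgcagggaCACGTGggggcgggggcg
NR1D2, D-box: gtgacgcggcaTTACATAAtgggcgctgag
No match was found in these windows for *ARNTL*, *NPAS2* and *DBP*, which says only that these letters were not in these 250 bases.

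Among the members, *CRY1*, *NR1D2* and *NR1D1* had the highest levels per length in the *VEGFA-LNC* controls, with means of 12.5, 11.2 and 10.4 FPKM (n = 2). They were followed by *PER1* at 7.0 and *CRY2* at 6.47 FPKM, whose library values overlapped, and then by *ARNTL* at 5.15 and *NPAS2* at 2.56 FPKM. *PER2*, *DBP* and *PER3* were low, at 0.927, 0.907 and 0.284 FPKM, and *PER2* and *DBP* overlapped. In the other 3 groups *NR1D2* came first, at 14.4 FPKM in the *VEGFA-LNC* clones, 10.5 in the *VEGFC-LNC* controls and 11.9 in the *VEGFC-LNC* clones, above the range of *CRY1* in each. *NPAS2* stood above *ARNTL* without overlap in the *VEGFA-LNC* clones and in the *VEGFC-LNC* controls. In the *VEGFC-LNC* clones the 2 genes overlapped and had nearly the same mean, at 4.03 FPKM for *NPAS2* and 4.01 FPKM for *ARNTL*. The low members rest on few reads, with 3 to 51 reads a library for *PER3*, 8 to 45 for *DBP* and 14 to 145 for *PER2*, against 83 or more in every library for *ARNTL* and 330 or more for *NR1D2*.

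**Figure D1:**
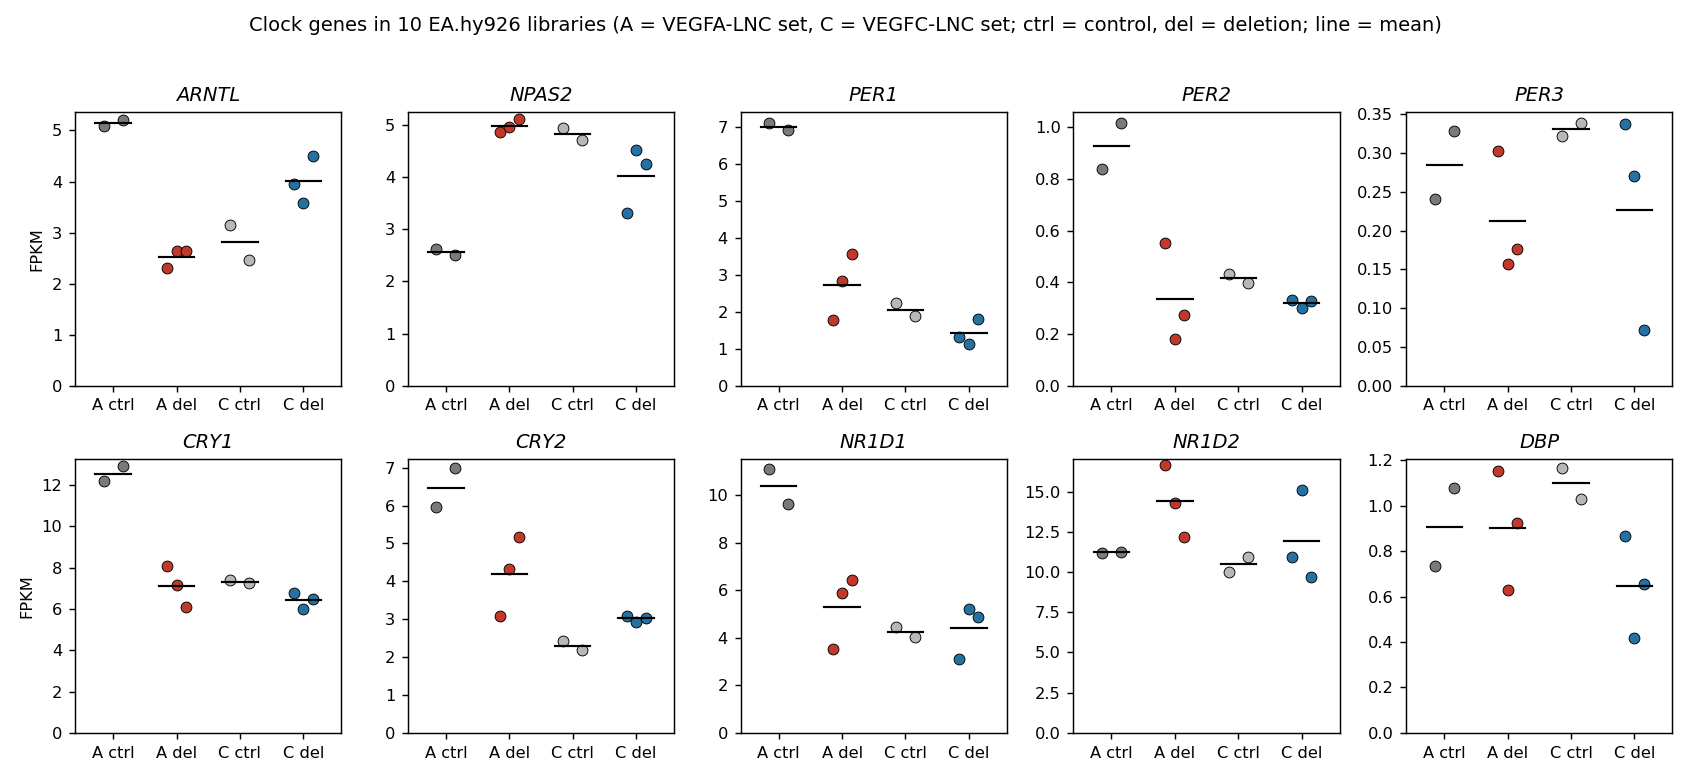
FPKM (y axes, linear and starting at 0) of the 10 clock genes in each of the 10 libraries, by group, with a horizontal line at each group mean (n = 2 for controls, n = 3 for deletion clones). *PER1*, *PER2*, *CRY1*, *CRY2*, *NR1D1* and *ARNTL* are higher in the *VEGFA-LNC* controls than in all 8 other libraries, and *NPAS2* is lower.

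The *VEGFA-LNC* clones were compared with their own controls to ask what the loss of the lncRNA promoter changed. Of the 10 clock genes, 3 fell (*PER1*, *ARNTL* and *CRY1*) and 1 rose (*NPAS2*), at FDR < 0.05 and a change of 1.5-fold or more. Among all genes tested, 2.02% fell and 0.735% rose by the same rule. In bulk RNA, fewer cells that express a gene and less of its RNA per cell cannot be told apart. The median log2 FC was -0.73 for the 10 members and -0.06 for all genes tested. The groups did not overlap for 8 of the 10 members, against 39% of all genes tested, and *PER3* and *DBP* were those that overlapped.

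*ARNTL* (NM_001030272, chr11:13299274-13408812 in hg19, plus strand), the activator without which the loop does not run, was at 5.09 and 5.21 FPKM in the *VEGFA-LNC* controls and at 2.31, 2.64 and 2.64 FPKM in the clones. All 3 clones lay at about the same level and far under both controls. The log2 FC was -1.0 (SE 0.17, FDR 0.0252, limma), a 2.0-fold decrease. The 34 transcript rows of this gene gave log2 FCs from -1.01 to -0.98. *ARNTL2*, of the other clock transcription factors listed below, was not called (log2 FC -0.21, SE 0.36, FDR 0.794). Its means ± SD were 56.4 ± 1.57 FPKM in the controls and 53.8 ± 31.4 in the clones.

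*NPAS2* (NM_002518, chr2:101436613-101613287, plus strand), the paralog of CLOCK that can take its place beside ARNTL, went the other way. It was at 2.61 and 2.5 FPKM in the controls and at 4.86, 4.96 and 5.11 FPKM in the clones, with a log2 FC of 0.93 (SE 0.16, FDR 0.0255), a 1.91-fold increase. The clones varied by a factor of only 1.05 between the highest and the lowest. The ratio of *ARNTL* to *NPAS2* was 1.95 and 2.08 in the controls and 0.474, 0.533 and 0.516 in the clones. *CLOCK* itself was at 3.07 and 3.21 FPKM in the controls and at 3.13, 2.55 and 2.29 FPKM in the clones, and did not pass the test (log2 FC -0.24, SE 0.18, FDR 0.49). On the other strand *NPAS2* overlaps *LOC101927142*, which was listed at 0 in all 10 libraries.

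*PER1* (NM_002616, chr17:8043788-8055753, minus strand), a repressor of the loop that also answers rapidly to glucocorticoids and cAMP, had the greatest decrease of the members called and the highest FDR among them. It was at 7.10 and 6.90 FPKM in the controls and at 1.78, 2.83 and 3.57 FPKM in the clones, with a log2 FC of -1.38 (SE 0.29, FDR 0.046) and a 2.61-fold decrease. Every clone was lower than the controls, and the clones differed among themselves 2.01-fold. The call was kept in 6 of 21 alternative fits, and was lost with a pseudocount of 0.01 (FDR 0.0549), with no filter (0.0529) and under the median of ratios (0.0508). *PER2* (NM_022817, chr2:239152679-239197207, minus strand), its closest relative in the loop, was at 0.838 and 1.02 FPKM in the controls and at 0.553, 0.180 and 0.273 FPKM in the clones. Its log2 FC of -1.33 (SE 0.34) was of similar size, but with an FDR of 0.0772 it was not called. *PER3* (NM_001289863, chr1:7844489-7905240, plus strand), a member of the family that the loop can spare, was at 0.240 and 0.328 FPKM in the controls and at 0.303, 0.157 and 0.176 FPKM in the clones, with overlapping groups and an FDR of 0.728.

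*CRY1* (NM_004075, chr12:107385143-107487635, minus strand), the strongest repressor of the pair of activators, was at 12.2 and 12.9 FPKM in the controls and at 8.06, 7.18 and 6.09 FPKM in the clones. All clones were lower, and the log2 FC was -0.82 (SE 0.15, FDR 0.0276), a 1.76-fold decrease. *CRY2* (NM_001127457, chr11:45868669-45904799, plus strand) was at 5.96 and 6.98 FPKM in the controls and at 3.09, 4.33 and 5.18 FPKM in the clones. The groups did not overlap, but the third clone came near the lower control, and *CRY2* was not called (log2 FC -0.64, SE 0.21, FDR 0.151). The ratio of *CRY1* to *CRY2* was 2.04 and 1.85 in the controls and 2.61, 1.66 and 1.18 in the clones, so that the controls lay inside the range of the clones.

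*NR1D1* (NM_021724, chr17:38249037-38256978, minus strand) was at 11.1 and 9.64 FPKM in the controls and at 3.53, 5.86 and 6.45 FPKM in the clones. It was lower in all 3 clones, by a log2 FC of -1.0 (SE 0.29), with an FDR of 0.107 that missed the threshold. The 3′ end of *NR1D1* overlaps *THRA*, the gene of thyroid hormone receptor alpha, by 1084 bases on the other strand. That *THRA* transcript had means ± SD of 3.46 ± 0.0559 FPKM in the *VEGFA-LNC* controls (n = 2), 6.72 ± 1.36 in the clones (n = 3), 4.37 ± 0.916 in the *VEGFC-LNC* controls (n = 2) and 3.70 ± 0.335 in the *VEGFC-LNC* clones (n = 3). The library kit keeps the strand, but whether the counting used it is not stated, and without it reads of the shared bases cannot be told apart.

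*NR1D2* (NM_001145425, chr3:23987612-24022109, plus strand), the partner of *NR1D1* in repression, did not follow it. It was at 11.2 and 11.2 FPKM in the controls and at 16.7, 14.3 and 12.2 FPKM in the clones, with a log2 FC of 0.34 (SE 0.20, FDR 0.393). The ratio of *NR1D2* to *NR1D1* was 1.01 and 1.17 in the controls and 4.72, 2.44 and 1.89 in the clones, with the first clone at the extreme of both genes. *DBP* (NM_001352, chr19:49133817-49140807, minus strand), an output that in many tissues swings strongly over the day, was at 0.733 and 1.08 FPKM in the controls and at 1.16, 0.631 and 0.924 FPKM in the clones. These groups overlapped, and the 95% confidence interval of the log2 FC ran from -0.77 to 0.74.

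Clones of 1 deletion were not alike. The highest clone exceeded the lowest by 1.05 to 3.07 times over the 10 members in the *VEGFA-LNC* clones, with a median of 1.75, and by a median of 1.11 between the 2 *VEGFA-LNC* controls. The first *VEGFA-LNC* clone had the lowest *PER1*, *CRY2*, *NR1D1*, *ARNTL* and *NPAS2* of the 3 and the highest *PER2*, *PER3*, *CRY1*, *NR1D2* and *DBP*. In the *VEGFC-LNC* clones the ratio ran from 1.05 to 4.68 with a median of 1.46, the largest being that of *PER3*, which had 3 reads in its lowest library.

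Leaving out 1 library changed the calls more than the size of the changes. None of the 4 calls was kept when a *VEGFA-LNC* control, a *VEGFC-LNC* control, or the second or the third *VEGFA-LNC* clone was left out, in each of these 6 cases with 0 members called by limma and 6 or 7 at an unadjusted p under 0.05, while 5 were called without the first *VEGFA-LNC* clone. The count over all genes moved in the same direction, from 367 in all 10 libraries to between 6 and 163 in these 6 cases and to 1732 without that clone. In the 6 cases the log2 FC stayed between -1.03 and -0.98 for *ARNTL*, 0.90 and 0.96 for *NPAS2*, -1.60 and -1.36 for *PER1*, and -0.86 and -0.71 for *CRY1*. Without any 1 of the *VEGFC-LNC* clones, *PER1* was not called (FDR 0.0506 to 0.0568) and the other 3 were. With only the 5 libraries of this comparison in the fit, or with each pair of controls taken as 1 sample, 0 members were called as well, and 6 and 5 members respectively had an unadjusted p under 0.05.

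**Figure D2:**
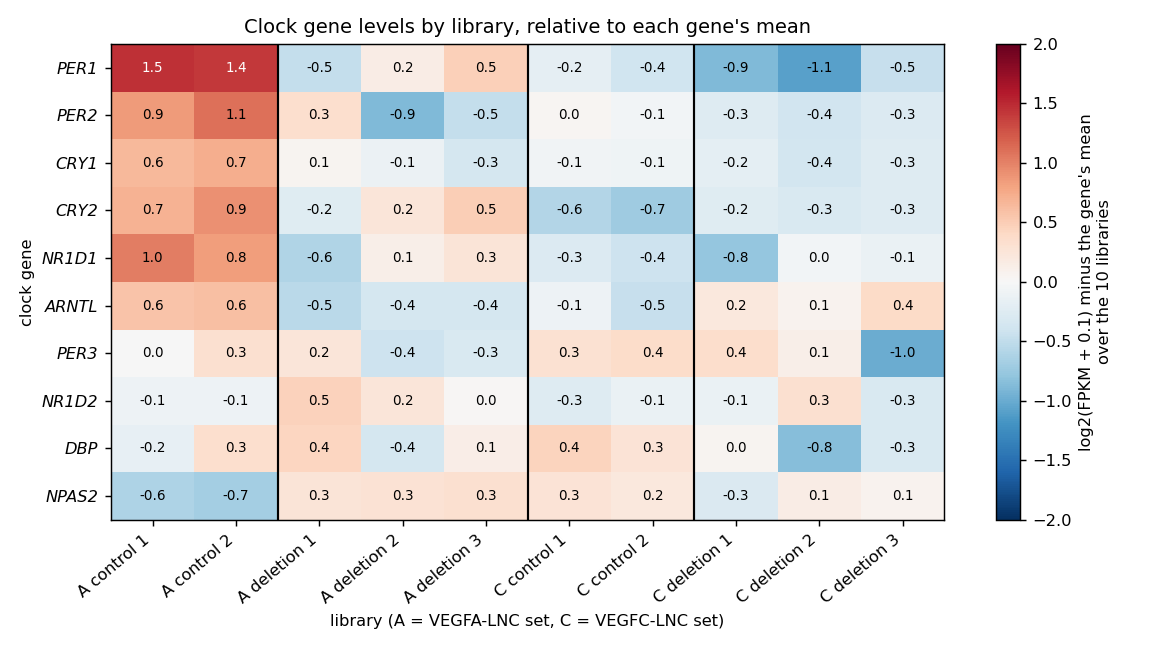
Level of each clock gene (rows) in each library (columns) as log2(FPKM + 0.1) minus the mean of that gene over the 10 libraries, with the value written in each cell and black lines between the 4 groups. The 2 *VEGFA-LNC* controls are at 0.56 or more for *PER1*, *PER2*, *CRY1*, *CRY2*, *NR1D1* and *ARNTL* and at -0.6 and -0.7 for *NPAS2*.

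The *VEGFC-LNC* clones were compared with their own controls in the same way. With limma, 0 of the 10 clock genes were called, against 0.473% of all genes tested, and 1 member (*ARNTL*) had an unadjusted p under 0.05. On the recovered reads (limma with voom weights) the count was also 0, again with 1 member at an unadjusted p under 0.05. The median log2 FC was -0.23 for the members and -0.09 for all genes tested, and the groups did not overlap for 7 of the 10 members, against 47.8% of all genes tested. The keratins had lower means in these clones, *KRT8* at 139 ± 40.4 against 320 ± 6.01 FPKM and *KRT18* at 142 ± 44.2 against 334 ± 1.3 FPKM, both at an unadjusted p under 0.05 but with FDRs of 0.163 and 0.202. Of 9 endothelial markers tested 8 had a higher mean level in the clones, with a median log2 FC of 0.61 and with 0 called by limma and 0 at an unadjusted p under 0.05. The *VEGFA-LNC* clones also had 8 of the 9 on the higher side of their controls by the mean, with a median log2 FC of 0.44. The clones did not share this, and each of these 8 markers had its lowest clone below both controls. The summed level of the endothelial markers ran from 187 to 780 FPKM in these clones and from 308 to 317 FPKM in their controls. *KRT8* (log2 FC -0.46, FDR 0.567) and *KRT18* (-0.37, FDR 0.707) were on the lower side there. Again limma called 0 of these markers, with 0 at an unadjusted p under 0.05. The part of these markers in the clock gene values was not tested.

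*ARNTL* was at 3.16 and 2.46 FPKM in the *VEGFC-LNC* controls and at 3.95, 3.57 and 4.5 FPKM in the clones. All 3 clones were above both controls, with a log2 FC of 0.50 (SE 0.17, FDR 0.194). *NPAS2* was at 4.95 and 4.70 FPKM in the controls and at 3.32, 4.51 and 4.25 FPKM in the clones, all of them lower (log2 FC -0.27, FDR 0.383). The ratio of *ARNTL* to *NPAS2* was 0.638 and 0.523 in the controls and 1.19, 0.792 and 1.06 in the clones. *CLOCK* was at 3.75 and 3.71 FPKM in the controls and at 3.05, 3.76 and 3.38 FPKM in the clones (FDR 0.683).

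*PER1* was at 2.23 and 1.89 FPKM in the controls and at 1.32, 1.13 and 1.80 FPKM in the clones, with the third clone close under the lower control (log2 FC -0.52, SE 0.29, FDR 0.352). *PER2* was at 0.434 and 0.399 FPKM against 0.332, 0.300 and 0.329 FPKM. *PER3* was at 0.322 and 0.339 FPKM against 0.337, 0.270 and 0.0720 FPKM. For each of these genes the 95% confidence interval of the log2 FC leaves room for a decrease larger than the FC threshold. It was -1.19 to 0.14 for *PER1*, -1.07 to 0.48 for *PER2* and -1.45 to 0.44 for *PER3*.

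*CRY1* was at 7.39 and 7.26 FPKM in the controls and at 6.78, 6.02 and 6.47 FPKM in the clones (log2 FC -0.19, 95% confidence interval -0.52 to 0.14). *CRY2* was at 2.42 and 2.19 FPKM against 3.09, 2.94 and 3.04 FPKM, every clone higher, with a log2 FC of 0.38 (SE 0.21, FDR 0.355). The 2 cryptochrome genes thus stood on opposite sides of their controls, neither past the threshold. *NR1D1* was at 4.46 and 4.02 FPKM in the controls and at 3.12, 5.20 and 4.88 FPKM in the clones, and *NR1D2* at 10.0 and 10.9 FPKM against 10.9, 15.1 and 9.70 FPKM, with overlapping groups for both. *DBP* was at 1.17 and 1.03 FPKM in the controls and at 0.865, 0.420 and 0.657 FPKM in the clones, the largest log2 FC of this comparison at -0.72 (SE 0.33, FDR 0.28).

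**Figure D3:**
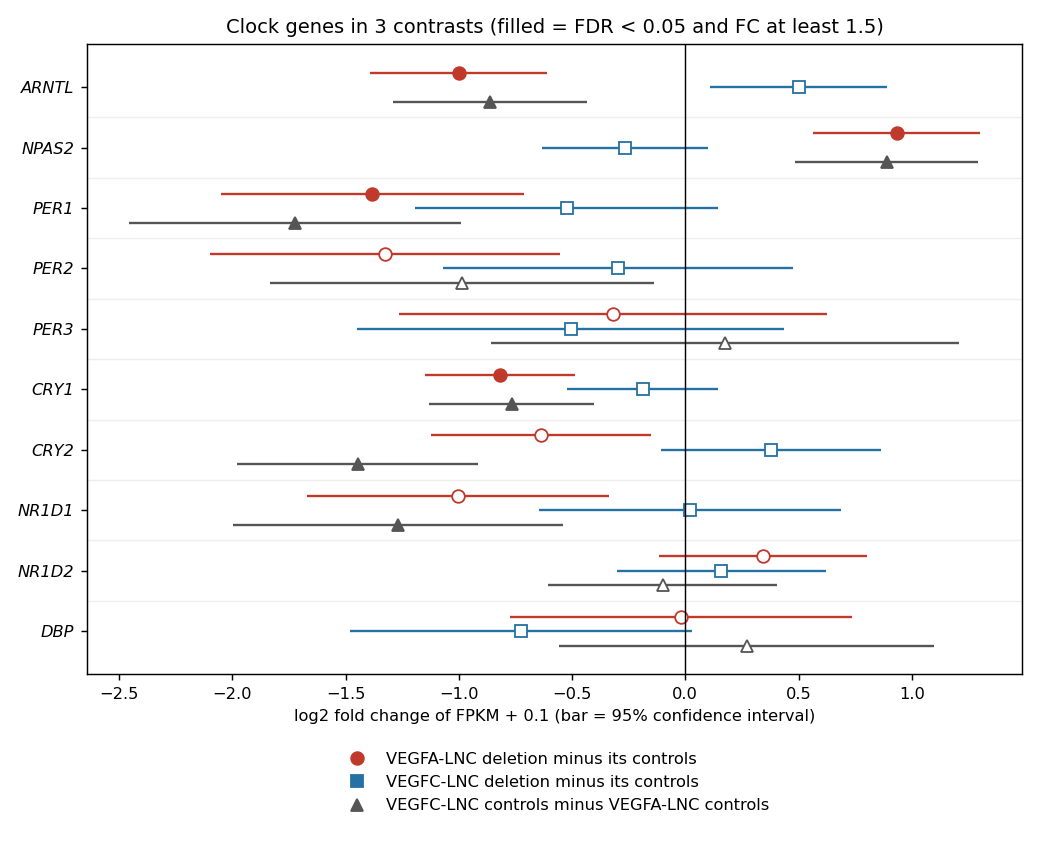
log2 FC of FPKM + 0.1 (x axis) with 95% confidence intervals for the 10 clock genes in the *VEGFA-LNC* deletion (circles), in the *VEGFC-LNC* deletion (squares) and between the control sets (triangles, *VEGFC-LNC* minus *VEGFA-LNC* controls), filled where the gene was called. Filled markers stand at 4 genes for the *VEGFA-LNC* deletion, 0 for the *VEGFC-LNC* deletion and 6 for the control sets.

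The control sets carry no deletion, and their comparison shows how far clock gene levels differed between cells that only went through transfection and clonal selection. The comparison shares the *VEGFA-LNC* controls with that of the *VEGFA-LNC* deletion. In the *VEGFC-LNC* controls 5 clock genes were lower than in the *VEGFA-LNC* controls (*PER1*, *CRY2*, *NR1D1*, *ARNTL*, *CRY1*) and 1 was higher (*NPAS2*). Among all genes tested, 9.76% were lower and 2.92% higher. The median log2 FC of all genes was -0.11 here, and that of the 10 members -0.81, and under a scaling by the median of ratios the median of all genes was -0.004 and 39.3% in place of 23.0% of the calls were higher. The 2 sets did not overlap for 8 of the 10 members, but this was so for 82.9% of all genes tested.

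The largest difference was that of *PER1*, from 7.0 FPKM (mean of the *VEGFA-LNC* controls) to 2.06 FPKM (mean of the *VEGFC-LNC* controls), with a log2 FC of -1.72 (SE 0.32, FDR 0.0147). *CRY2* followed with means of 6.47 and 2.30 FPKM (log2 FC -1.45, SE 0.23, FDR 0.00947) and *NR1D1* with 10.4 and 4.24 FPKM (log2 FC -1.27, SE 0.32, FDR 0.0361). *ARNTL* had means of 5.15 and 2.81 FPKM (log2 FC -0.86, SE 0.19, FDR 0.023) and *CRY1* of 12.5 and 7.32 FPKM (log2 FC -0.77, SE 0.16, FDR 0.0204). *NPAS2* had means of 2.56 and 4.83 FPKM (log2 FC 0.89, SE 0.18, FDR 0.0177). *NR1D2* at 11.2 and 10.5 FPKM, *DBP* at 0.907 and 1.10 FPKM, *PER3* and *PER2* were not called, the last with a log2 FC of -0.99 and an FDR of 0.111. All 6 calls were lost when any 1 of the 4 controls was left out or when each pair was taken as 1 sample. These fits leave 1 sample in a control group. *NR1D1* was lost under the median of ratios, which left 5. Without 1 control the count over all genes fell from 1690 to between 33 and 77, whereas the log2 FC stayed between -1.84 and -1.61 for *PER1*, -1.56 and -1.34 for *CRY2*, -1.37 and -1.17 for *NR1D1*, and -1.03 and -0.69 for *ARNTL*.

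The summed level of 6 proliferation markers, *MKI67* among them, also differed between the sets, at 230 to 242 FPKM in the *VEGFA-LNC* controls and 385 to 402 FPKM in the *VEGFC-LNC* controls, with all 6 higher, 0 called by limma and 0 at an unadjusted p under 0.05. It ran from 176 to 432 FPKM in the *VEGFA-LNC* clones and from 131 to 308 FPKM in the *VEGFC-LNC* clones. Of 5 leukocyte markers, summed at 49.3 to 54.1 FPKM and 26.0 to 26.2 FPKM in the 2 control sets, *CD68* supplied nearly all, and *CD14*, *CD3E* and *PTPRC* were near 0. *CD68* was called between the sets, at 48.0 ± 3.06 and 25.6 ± 0.342 FPKM (log2 FC -0.91, FDR 0.0078), and both leukocyte markers tested had an unadjusted p under 0.05. The 6 fibroblast markers summed to 0.539 to 0.541 FPKM in the *VEGFA-LNC* controls and to at most 0.485 FPKM elsewhere, with *COL1A2*, *DCN* and *LUM* at or near 0 in every library. *COL1A1*, a collagen chain, was called in both comparisons that hold the *VEGFA-LNC* controls, with 0.308 ± 0.0339 FPKM in these controls (29 to 44 reads). It was at 0.0443 ± 0.0156 FPKM in the *VEGFA-LNC* clones (3 to 6 reads, log2 FC -1.50, FDR 0.0422). In the *VEGFC-LNC* controls it was at 0.0635 ± 0.0389 FPKM (2 to 13 reads, log2 FC -1.34, FDR 0.037). The other fibroblast marker tested, *PDGFRA*, was not called. Its log2 FC was 0.28 in the *VEGFA-LNC* deletion (FDR 0.839) and -0.69 between the control sets (FDR 0.509). The part of proliferation and of these markers in the clock gene differences was not tested.

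Since the *VEGFA-LNC* controls stand in both comparisons in which clock genes were called, the clones were also set against the other controls, a step added after the data had been seen. The 2 *VEGFA-LNC* controls lay above all 8 other libraries for 6 members (*PER1*, *PER2*, *CRY1*, *CRY2*, *NR1D1*, *ARNTL*) and below all 8 for 1 (*NPAS2*), 7 of 10 in all, whereas 22% of all genes tested had these controls above or below all others. Against the *VEGFC-LNC* controls, the *VEGFA-LNC* clones had 0 clock genes called, with 1 member at an unadjusted p under 0.05, against 6.45% of all genes tested. The log2 FC of *ARNTL* was then -0.14, of *CRY1* -0.05 and of *NPAS2* 0.04, and that of *PER1* turned to 0.34 (SE 0.29). *CRY2* turned from -0.64 to 0.81 (SE 0.21) with an FDR of 0.0564. Against all 4 controls, 0 members were called in the *VEGFA-LNC* clones, with 1 at an unadjusted p under 0.05 (*NR1D2*), against 0.218% of all genes tested.

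In the same way, the *VEGFC-LNC* clones differed from the *VEGFA-LNC* controls in 6 members, namely *PER1* (log2 FC -2.25, SE 0.29, FDR 0.00348), *PER2* (-1.28, FDR 0.0368), *NR1D1* (-1.25, FDR 0.0245), *CRY2* (-1.07, FDR 0.0148), *CRY1* (-0.96, FDR 0.00585) and *NPAS2* (0.62, FDR 0.0346), against 13.8% of all genes tested. *ARNTL* was not among them (-0.36, FDR 0.186), its level in these clones being between those of the 2 control sets. In this comparison across sets, the deletion and the set cannot be told apart.

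**Figure D4:**
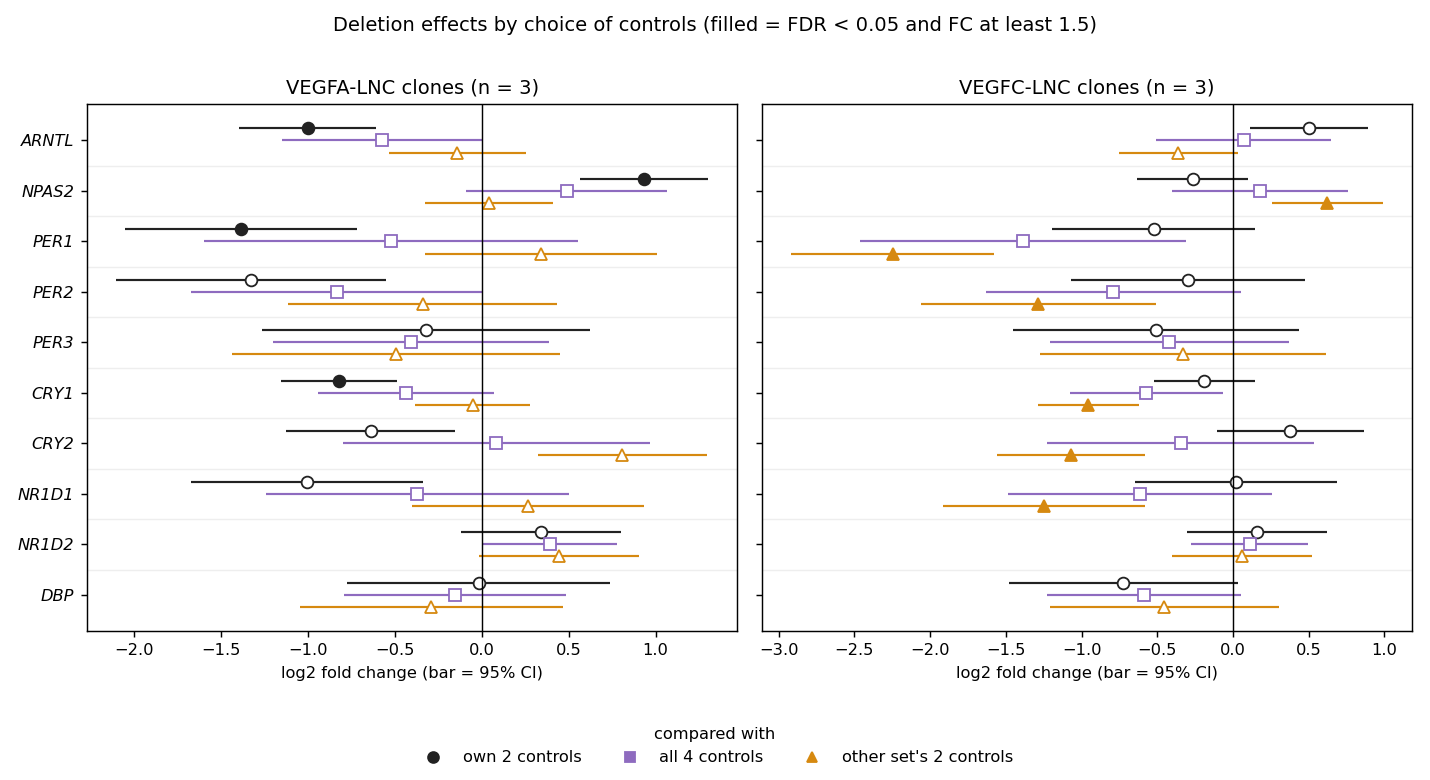
log2 FC of the clock genes with 95% confidence intervals (x axes) in the *VEGFA-LNC* clones (left) and the *VEGFC-LNC* clones (right), against their own 2 controls (circles), all 4 controls (squares) or the 2 controls of the other set (triangles), filled where the gene was called. For the *VEGFA-LNC* clones the number of filled markers goes from 4 to 0 and 0, and for the *VEGFC-LNC* clones from 0 to 0 and 6.

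Whether the 2 deletions differed in their effects was tested as such. *ARNTL* (difference 1.5 on the log2 scale, SE 0.24, FDR 0.0265) and *NPAS2* (-1.20, SE 0.23, FDR 0.0441) differed between the deletions, 2 of 10 members against 1.46% of all genes tested. *ARNTL* was lower than the own controls in 3 of 3 *VEGFA-LNC* clones and higher in 3 of 3 *VEGFC-LNC* clones, and *NPAS2* the other way round. For *PER1*, *PER2*, *CRY1*, *CRY2* and *NR1D1* the difference was between 0.63 and 1.03 and was not called, with FDRs of 0.135 to 0.308. The controls of each set enter this difference, and the 2 sets themselves differed for *ARNTL* and *NPAS2* as given above.

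The remaining clock genes were looked at by lists. Of 12 other clock transcription factors and repressors, 8 were tested, and 1 was called in the *VEGFA-LNC* clones. This was *NFIL3*, a repressor that competes with DBP for D-boxes, with means ± SD of 15.9 ± 0.655 FPKM in the controls and 8.95 ± 1.71 in the clones (log2 FC -0.84, SE 0.17, FDR 0.0407). It was at 6.38 ± 0.19 FPKM in the *VEGFC-LNC* controls and at 6.32 ± 0.399 in the *VEGFC-LNC* clones. The median log2 FC of the 8 genes was -0.23 in the *VEGFA-LNC* clones and -0.08 in the *VEGFC-LNC* clones, in which limma called 0 and 2 had an unadjusted p under 0.05. Of 17 kinases, phosphatases, ubiquitin ligases and proteases that act on the PER, CRY or ARNTL proteins, 14 were tested and 0 were called by limma in either deletion, with medians of -0.04 and 0.02 and with 3 genes in the *VEGFA-LNC* and 1 in the *VEGFC-LNC* deletion at an unadjusted p under 0.05.

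Of 18 known outputs of E-boxes or D-boxes, 16 were tested, with 8 lower and 8 higher in the *VEGFA-LNC* clones and a median log2 FC of -0.06. The 2 called there fell. Of these, *NOCT*, a rhythmic phosphatase of the nicotinamide dinucleotides also known as nocturnin, went from 41.8 ± 5.86 to 11.3 ± 3.76 FPKM (log2 FC -1.92, SE 0.35, FDR 0.0278). In the *VEGFC-LNC* clones 7 outputs were on the lower and 9 on the higher side of their controls, with a median log2 FC of 0.05. Between the control sets 6 of the 16 outputs were called, all lower in the *VEGFC-LNC* controls, against 9.76% of all genes tested.

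Of 16 genes that answer to the clock-setting inputs glucocorticoid and cAMP, all 16 were tested and 3 fell in the *VEGFA-LNC* clones. These were *SGK1*, a serum- and glucocorticoid-induced kinase (59.1 ± 1.88 to 22.5 ± 6.82 FPKM, log2 FC -1.44, FDR 0.0236), *FOS*, an immediate-early transcription factor (3.71 ± 0.156 to 1.10 ± 0.0685 FPKM, log2 FC -1.66, FDR 0.0281), and *DUSP1*, a phosphatase of MAP kinases (47.3 ± 3.75 to 25.6 ± 1.94 FPKM, log2 FC -0.88, FDR 0.0361). The glucocorticoid target *FKBP5* was not called, with 6.52 ± 0.165 FPKM in the controls and 8.24 ± 2.92 in the clones. The median log2 FC of the 16 genes was -0.37 in the *VEGFA-LNC* clones, 0.01 in the *VEGFC-LNC* clones with 0 called and 2 at an unadjusted p under 0.05, and -0.72 between the control sets with 6 called lower and 1 (*FKBP5*) called higher, against 9.76% and 2.92% of all genes tested. Between the control sets, a comparison that shares the *VEGFA-LNC* controls, the log2 FC was -1.31 for *NFIL3*, -2.69 for *NOCT*, -1.81 for *SGK1*, -1.77 for *FOS* and -1.63 for *DUSP1*.

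The neighbours of the members on their chromosomes were also looked at. Over the 8 to 96 tested genes within 2 Mb of each member, the median log2 FC lay between -0.39 and 0.06 in the *VEGFA-LNC* deletion, the lowest being that around *CRY1*, and between -0.44 and 0.09 for the control sets, the lowest being that around *ARNTL*. Around *ARNTL* the median was -0.15 in the *VEGFA-LNC* deletion, around *PER1* 0.00 and around *NPAS2* -0.06.

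The pattern over libraries was compared with that of all genes tested, as Pearson's r of log2(FPKM + 0.1) over the 10 libraries, which fall into 4 groups and differ in depth. The gene nearest to *ARNTL* was *EDN1* (endothelin 1, r = 0.968), and those nearest to *NPAS2*, *PER1* and *PER2* were *DOCK1* (0.970), *MLLT11* (0.982) and *FMN1* (0.987). *CRY1* was nearest to *GCSAML* (0.983), *CRY2* to *WDR47* (0.982), *NR1D1* to *MYOZ2* (0.970), *NR1D2* to *TTC33* (0.939), *DBP* to *POLA2* (0.974) and *PER3* to *ATL2* (0.906). No other member was among the 50 genes nearest to any member. Of the clock lists, outputs included, 3 genes were found there for *PER1* (*NOCT*, *NFIL3* and *ALAS1*), 1 for *NR1D1* (*KLF10*) and 0 for the other 8.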

How the data were processed

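RNA-Seq was done by the authors on rRNA-depleted total RNA of 10 EA.hy926 libraries, with a directional kit and single-end reads. Per the labels and the paper, reads were trimmed with Trim Galore (version 0.4.4), aligned to GRCh37 with STAR (version 2.5.4b) and assigned to genes by featureCounts. A single FPKM table, with a row for each RefSeq transcript (hg19), was deposited by the authors; how it was computed, with which annotation and whether by strand, is not given in the sources used here, and gene counts were not used here. Of its 65572 rows, 42 name no gene and were left out.

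Whole reads were recovered from the steps of the FPKM values (at least 99.99% of the values checked came out whole, within 0.02 reads beside the rounding of the deposited value) to give the depth. For each symbol the row with the highest mean was kept, and genes with FPKM times length in kilobases of at least 1 in at least 2 libraries were tested. log2(FPKM + 0.1) was fitted with limma (version 3.58.1, R version 4.3.3; lmFit, eBayes with trend) in 4 groups of all 10 libraries, with 6 residual and a median of 2.8 prior degrees of freedom. Fold changes are on this scale and understate those of low genes. FDRs follow Benjamini and Hochberg over all genes tested, and genes were called at FDR < 0.05 with a change of 1.5-fold or more. The tests had been planned for RPKM, which equals FPKM when reads are single-end. The fit was tested on simulated data with the same spread in all 4 groups. In the real data the clones varied more than the controls, so the simulation does not cover this case.

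Named are all 10 members, *CLOCK*, the genes of the lists called in a deletion (at most 6 a list), the nearest gene of each member and genes overlapping a member on the other strand; other list and marker genes were named after their values were seen. 1 gene of the list of outputs is counted there but not reported here by name. The members, the lists and the motifs were chosen with earlier results of these data known, and support nothing by themselves. Promoter sequences are from RefSeq (GRCh38.p14), and gene positions from the table (hg19).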

Additional observations from a re-analysis of the deposited data

Results flagged for a closer look

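Differences in the effect of the deletions were tested for all 10 clock genes, and those of *ARNTL* and *NPAS2* passed. The controls of each set enter these differences, and the 2 control sets themselves differed. The log2 FC of the *VEGFC-LNC* against the *VEGFA-LNC* controls was -0.86 for *ARNTL* and 0.89 for *NPAS2*. Set against the *VEGFC-LNC* controls, the *VEGFA-LNC* clones had log2 FCs of -0.14 for *ARNTL* and 0.04 for *NPAS2*. The part of the controls was not tested. The effect of the *VEGFC-LNC* deletion on *ARNTL* minus that of the *VEGFA-LNC* deletion was 1.5 on the log2 scale (SE 0.24, FDR 0.0265, limma over all 10 libraries). The effects themselves were 0.50 and -1.0, with 3 of 3 *VEGFC-LNC* clones above and 3 of 3 *VEGFA-LNC* clones below their own controls. For *NPAS2* the difference was -1.20 (SE 0.23, FDR 0.0441), from effects of -0.27 and 0.93, with 3 of 3 clones below and 3 of 3 above their controls. Over the 19 alternative fits the difference lay between 1.2 and 1.67 for *ARNTL*, which was called in 12, and between -1.29 and -0.97 for *NPAS2*, which was called in 8.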

How the results depend on the processing

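Of 822 values of single clock genes under all alternatives, 694 kept their direction and their side of the threshold, 97 were no longer called, 7 became called and 24 turned. The 694 include values that were called neither in the main analysis nor in the alternative, so they do not measure how often a call was kept. In the *VEGFA-LNC* deletion, *ARNTL*, *NPAS2* and *CRY1* were each called in 11 of 21 alternative fits and *PER1* in 6. The number of members called in the *VEGFA-LNC* deletion (4) was 0 with only the 2 groups compared, with all 4 controls and with each control pair as 1 sample, and 0 to 5 when 1 library was left out. That in the *VEGFC-LNC* deletion (0) was 0 in all alternative fits with its own or all controls. That between the control sets (6) was 0 with control pairs as 1 sample and 0 to 7 when 1 library was left out. That of the difference between the deletions (2) was 1 under the median of ratios, 0 with control pairs as 1 sample and 0 to 2 when 1 library was left out. Against the controls of the other set, added after seeing the data, the counts were 0 and 6 for the *VEGFA-LNC* and *VEGFC-LNC* clones. Fewer samples enter several of these fits; otherwise the cause was not tested. Over the same fits the count over all genes ran from 0 to 1732 in the *VEGFA-LNC* deletion (367 in the main analysis).

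With the replicate number as a block, the count was 1 (*PER1*) in the *VEGFA-LNC* deletion and 0 in the *VEGFC-LNC* deletion. It was 6 between the control sets and 0 for the difference between the deletions. Over all genes tested, 151, 20, 1628 and 86 were called, in the same order. The replicate numbers pair only 2 clones with 2 controls in each set, and the correlations of same-numbered deviations were -0.043 to 0.047. The clones are independent, so the replicate numbers were not taken as pairs.

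Values that turned were small or depended on the controls. Under the median of ratios *DBP* was at 0.029 in the *VEGFA-LNC* deletion and *NR1D2* at 0.006 between the control sets. With all 4 controls, *CRY2* was at 0.086 in the *VEGFA-LNC* deletion, and *NPAS2* at 0.18, *CRY2* at -0.35 and *NR1D1* at -0.61 in the *VEGFC-LNC* deletion. *NR1D1* in the *VEGFC-LNC* deletion was at -0.11 with the block and at -0.011 on recovered reads (voom), where *PER3* was at 0.017 in the difference between the deletions. Against the other controls, *PER1* was at 0.34, *CRY2* at 0.81 and *NR1D1* at 0.27 in the *VEGFA-LNC* clones, and *ARNTL* at -0.36, *NPAS2* at 0.62, *CRY2* at -1.07 and *NR1D1* at -1.25 in the *VEGFC-LNC* clones. When 1 library was left out, the *VEGFA-LNC* effect on *DBP* ran from -0.269 to 0.234, the *VEGFC-LNC* effect on *NR1D1* from -0.115 to 0.246 and on *NR1D2* from -0.023 to 0.293, and the difference between the deletions for *PER3* from -0.452 to 0.221.

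*PER3*, *DBP* and *PER2* have the fewest reads of the members. In the *VEGFC-LNC* deletion the 95% confidence interval of every member but *CRY1* reaches past the FC threshold, and the part of depth was not tested. An exact permutation test of 3 clones against 2 controls has 10 splits and could not go below 0.1, so none was used.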
